A study of Mus musculus with 18 samples.

Results

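The transcripts of 9 genes that write, maintain or remove cytosine methylation were followed across 18 RNA-seq libraries of mouse embryonic stem cells. They were taken by gene symbol and comprise Dnmt1, Uhrf1, Dnmt3a, Dnmt3b, Dnmt3l, Tet1, Tet2, Tet3 and Tdg. They are 9 of the 53672 genes listed in each library, and all 9 were among the 18791 genes with enough counts to be tested.

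DNA methylation in mammals sits mostly on cytosines followed by guanine (CpG). DNMT1, brought to newly replicated DNA by UHRF1, copies existing methylation, while DNMT3A and DNMT3B set new methylation with the catalytically inactive partner DNMT3L. The TET enzymes oxidise 5-methylcytosine, and TDG excises the more oxidised bases so that base excision repair can restore cytosine. Embryonic stem cells in serum carry both activities at high levels, with Tet1 and Tet2 as the main Tet genes and PRDM14 as a repressor of the de novo methyltransferase genes.

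All cells were Hdac1/2 lox/lox cells of the E14TG2a line, grown in serum with LIF on gelatine. HDAC1 and HDAC2 are histone deacetylases that work inside several multi-protein complexes. Each of 3 lines had been stably transfected by piggyBac with a Flag-tagged HDAC1, either wild type (HDAC1-WT) or with the surface substitution E63R or Y48E, so that the untreated cells also carry the transgene beside the endogenous genes. Treatment with 1 µM 4-hydroxytamoxifen (OHT) deletes both endogenous genes, and the labels give 5 days with or without it. The study's methods describe a shorter exposure to OHT, followed by further culture. The 6 groups, of 3 libraries each, were the HDAC1-WT, the HDAC1-E63R and the HDAC1-Y48E line without OHT and the same lines with it. The sources used here name 1 line for each construct, so an effect of the construct cannot be told apart from another difference between the lines.

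The libraries held between 9019615 and 11454638 counts on genes. Levels are given as CPM, a gene's count divided by its TMM-scaled library size and multiplied by a constant, and a count of 3, the upper limit that a count of 0 allows, lay between 0.248 and 0.343 CPM. The members lay far above it, from 116 counts of Tet3 to 6337 counts of Dnmt3l in a single library. Hdac1 was at 205 ± 4.98 CPM (SD, n = 3) in untreated HDAC1-WT cells and 174 ± 5.06 CPM after OHT, and Hdac2 was at 195 ± 22.9 and 124 ± 10.3 CPM. Neither gene passed the test of OHT-treated against untreated cells in any line, and counts over a whole gene do not check the loss of its floxed part. Hdac1 was lower in the HDAC1-E63R line (105 ± 8.82 CPM untreated, 122 ± 9.36 after OHT) and the HDAC1-Y48E line (101 ± 2.92 and 112 ± 1.49 CPM). Against HDAC1-WT it was called lower untreated (log2 fold change -0.96 and -1.02) and after OHT (-0.51 and -0.64), with edgeR adjusted p between 5.60e-08 and 1.99e-04. The ES cell markers Pou5f1, Sox2, Nanog, Esrrb, Zfp42, Klf4, Tbx3, Tfcp2l1, Prdm14 and Dppa3 were detected in every group.

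One library stood apart from its group, untreated HDAC1-E63R replicate 3. In it 23.2% of the tested genes differed by more than 2-fold from the mean of the other libraries of its group, against 6.20% to 10.5% in libraries outside that group. It correlated with its own group at r = 0.95 and with untreated HDAC1-Y48E also at r = 0.95, across 18791 genes. Of the 9 genes, 8 were lower in it than in both other libraries of the group, and Dnmt3l was higher. Tet2 was at 27.8%, Tet1 at 46.1%, Tet3 at 51.8%, Tdg at 53.8%, Dnmt1 at 55.7%, Uhrf1 at 56.0%, Dnmt3b at 63.3% and Dnmt3a at 70.4% of the mean of the other libraries, whereas Dnmt3l was at 143%. This library enters the HDAC1-E63R comparisons directly and every other comparison through the shared estimate of the spread. The numbers of called genes among the 9 are therefore also given without it, as are the OHT counts of most other gene lists. Correlations between genes were computed with it only.

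**Figure D1:**
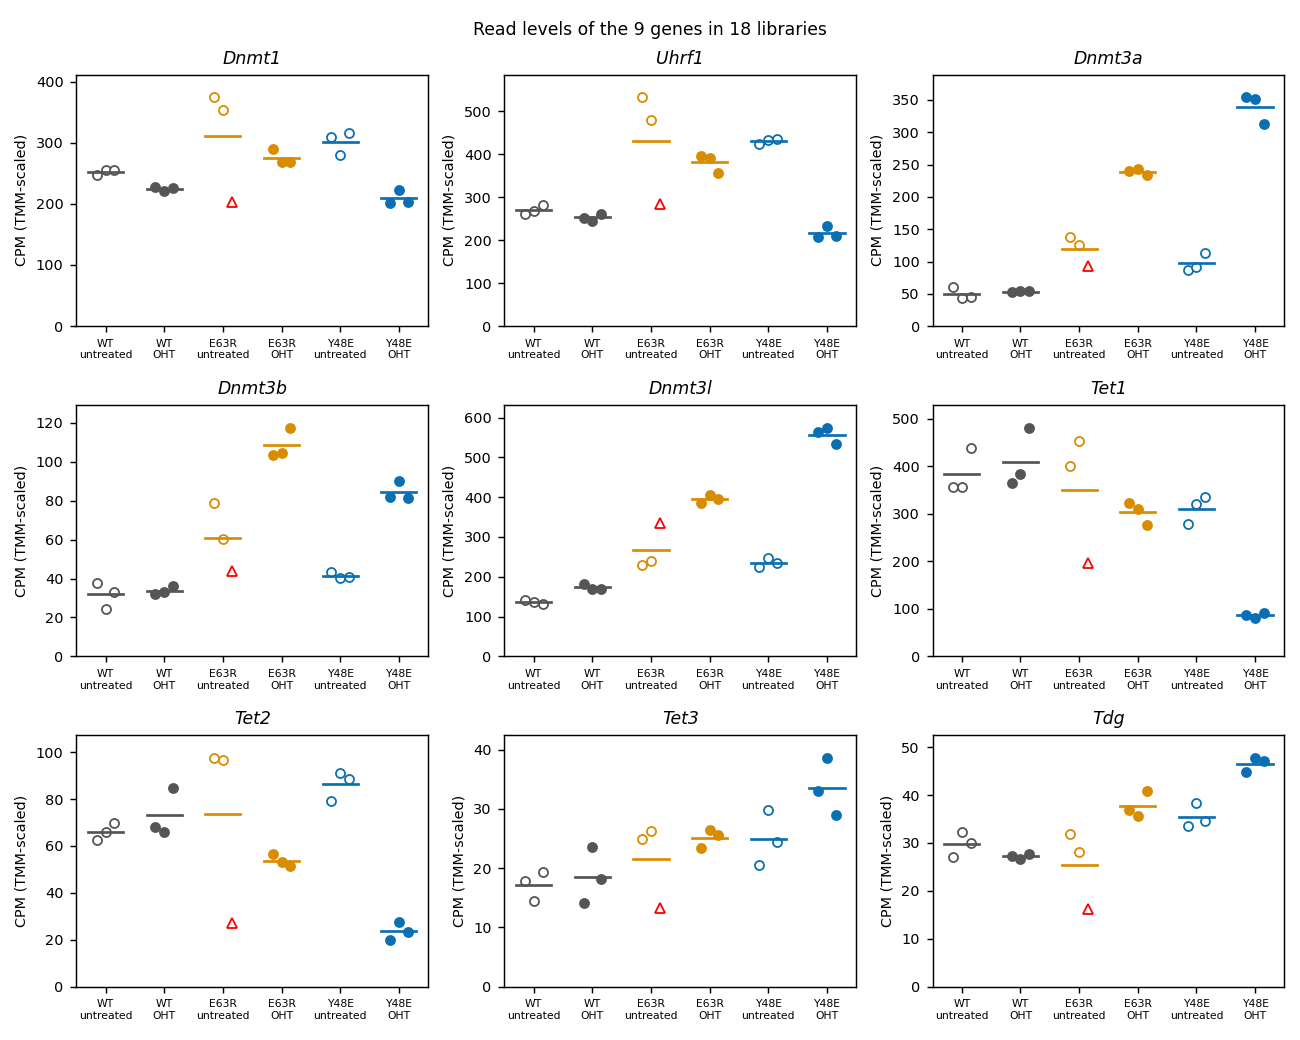
Levels of the 9 genes in each library (CPM on TMM-scaled library sizes, linear axes from 0), with open symbols for untreated and filled symbols for OHT-treated cells, and a bar at each group mean (n = 3). The red triangle is untreated HDAC1-E63R replicate 3. Dnmt3a runs from 44.3 CPM in the HDAC1-WT line to 354 CPM in the OHT-treated HDAC1-Y48E line, while Tet1 runs from 482 down to 81.5 CPM.

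The start sites of the de novo genes and of Tet1 and Tet2, the genes with the largest shifts, are shown because CpG is the substrate of the encoded enzymes. RefSeq windows of 300 bases, from 250 before to 50 after a start, were read on build GRCm38.p6 (mm10) and matched for all 9 genes. CpG dinucleotides, the searched motif, are in capitals, and each window is printed 5′ to 3′ on the strand of its gene.
Dnmt3a, internal start of the shorter transcripts, chr12:3891494-3891793, plus strand: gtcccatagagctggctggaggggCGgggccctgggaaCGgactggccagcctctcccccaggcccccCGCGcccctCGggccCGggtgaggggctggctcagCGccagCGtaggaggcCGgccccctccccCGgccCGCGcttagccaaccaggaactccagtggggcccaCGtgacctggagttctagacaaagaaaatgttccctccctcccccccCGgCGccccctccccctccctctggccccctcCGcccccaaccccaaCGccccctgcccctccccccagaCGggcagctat
Dnmt3b, chr2:153649199-153649498, plus strand: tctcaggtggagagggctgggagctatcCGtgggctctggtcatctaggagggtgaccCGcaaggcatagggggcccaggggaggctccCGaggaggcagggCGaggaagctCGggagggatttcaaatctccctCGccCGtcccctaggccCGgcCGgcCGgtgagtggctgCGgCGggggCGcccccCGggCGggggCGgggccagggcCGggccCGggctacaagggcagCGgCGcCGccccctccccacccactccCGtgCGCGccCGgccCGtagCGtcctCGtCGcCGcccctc
Dnmt3l, chr10:78055085-78055384, plus strand: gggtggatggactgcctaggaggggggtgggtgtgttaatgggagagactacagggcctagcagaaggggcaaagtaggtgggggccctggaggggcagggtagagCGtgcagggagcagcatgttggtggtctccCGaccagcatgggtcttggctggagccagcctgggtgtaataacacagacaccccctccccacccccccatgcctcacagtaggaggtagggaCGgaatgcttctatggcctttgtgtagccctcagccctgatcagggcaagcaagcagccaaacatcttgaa
Tet1, chr10:62887275-62887574, minus strand: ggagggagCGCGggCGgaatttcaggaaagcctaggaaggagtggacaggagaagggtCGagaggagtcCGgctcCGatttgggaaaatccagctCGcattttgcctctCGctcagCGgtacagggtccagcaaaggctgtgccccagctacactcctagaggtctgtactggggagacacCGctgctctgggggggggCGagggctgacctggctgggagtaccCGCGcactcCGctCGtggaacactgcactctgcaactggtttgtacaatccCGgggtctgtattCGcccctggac
Tet2, chr3:133544341-133544640, minus strand: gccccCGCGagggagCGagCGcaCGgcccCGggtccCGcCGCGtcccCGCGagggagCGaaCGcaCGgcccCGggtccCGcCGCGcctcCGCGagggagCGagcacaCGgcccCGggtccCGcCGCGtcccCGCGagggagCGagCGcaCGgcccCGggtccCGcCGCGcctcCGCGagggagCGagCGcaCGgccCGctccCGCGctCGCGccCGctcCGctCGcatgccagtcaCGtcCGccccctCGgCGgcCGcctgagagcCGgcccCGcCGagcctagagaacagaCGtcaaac

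These windows differ widely in CpG. The Tet2 window held 57 CpGs, which 0.152% of the 32851 promoter windows in the same set matched or exceeded, and the Dnmt3b window held 30 (11.7% of windows with at least as many). The internal Dnmt3a start had 18 (29.7%) and the Tet1 window 17 (31.4%), whereas the Dnmt3l window had 3 (76.7%), below the median of 7. The upstream Dnmt3a starts held 46 and 47 CpGs, and the other Dnmt3l starts 4 and 6. Among these genes, which were picked by the size of their shifts, the CpG numbers of those that rose and those that fell overlapped. So few windows cannot show whether CpG number and direction of change are related, and this was not tested. The read counts do not tell the starts of a gene apart. The whole genes lie at chr12:3806007-3914443 (Dnmt3a), chr2:153649450-153687730 (Dnmt3b), chr10:78041947-78063622 (Dnmt3l), chr10:62804570-62908996 (Tet1) and chr3:133463679-133545139 (Tet2).

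With the deletion of endogenous Hdac1/2, none of the 9 genes passed the test in the HDAC1-WT line, the de novo genes rose in the HDAC1-E63R line, and 7 of 9 changed in the HDAC1-Y48E line. A gene is called where the adjusted p of edgeR's quasi-likelihood test is under 0.01, and a DEG where it is also beyond 2-fold. In the HDAC1-WT line 0 of 9 were called, with 1 at an unadjusted p under 0.05 and 0 by DESeq2 at the same limit, against 0.0373% of all tested genes called higher, 0.0213% called lower and 0.0532% that were DEGs. For HDAC1-E63R 3 of 9 rose and 0 fell, against 7.49% higher, 6.82% lower and 5.91% DEGs among all tested genes, and only Dnmt3a was a DEG. For HDAC1-Y48E 3 rose and 4 fell, against 16.2% higher and 14.7% lower, and 5 of 9 were DEGs against 16.6%. Without untreated HDAC1-E63R replicate 3, 19503 genes were tested. Then 1 rose in the HDAC1-WT line (background 0.738% higher, 0.656% lower), 3 rose and 4 fell in the HDAC1-E63R line (8.85% and 9.63%), and 4 rose and 4 fell in the HDAC1-Y48E line (21.2% and 19.9%). In all these bulk libraries, fewer cells of a type and less RNA per cell cannot be told apart.

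**Figure D2:**
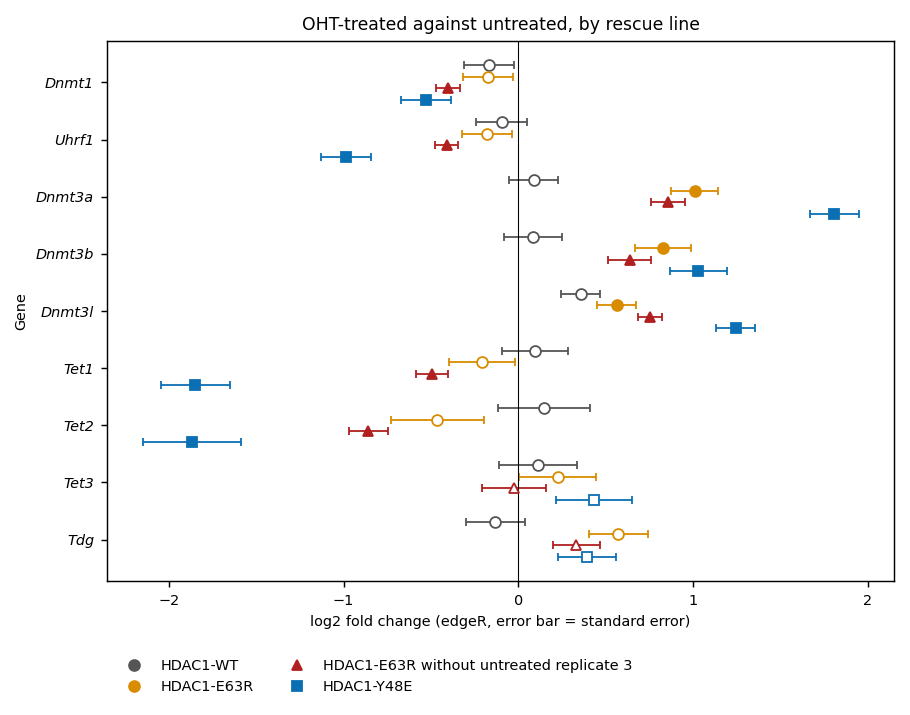
Log2 fold change after OHT with its standard error (edgeR) for each gene, by rescue line. Filled symbols passed an adjusted p of 0.01 and open symbols did not, and triangles give the HDAC1-E63R line without untreated replicate 3. Dnmt3a, Dnmt3b and Dnmt3l lie to the right of 0 in both mutant lines, and Tet1 and Tet2 lie near -1.85 in the HDAC1-Y48E line.

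The de novo methyltransferase genes carried the rise in both mutant lines. Dnmt3a, one of the 2 catalytic de novo enzymes, was at 61.2, 44.3 and 45.7 CPM in untreated HDAC1-WT libraries and at 52.1, 54.5 and 54.1 CPM after OHT. HDAC1-E63R libraries had 138, 126 and 92.9 CPM untreated and 241, 243 and 234 CPM after OHT. HDAC1-Y48E libraries had 86.4, 91.9 and 113 CPM untreated and 354, 352 and 313 CPM after OHT. The groups overlapped in the HDAC1-WT line and were fully apart in both mutant lines. The log2 fold change was 0.09 ± 0.14 (SE; edgeR adjusted p = 0.924) in the HDAC1-WT line, 1.01 ± 0.14 for HDAC1-E63R (adjusted p = 1.54e-05) and 1.81 ± 0.14 for HDAC1-Y48E (adjusted p = 1.14e-09). Without the library that stood apart, the HDAC1-E63R change was 0.86 ± 0.10 (edgeR adjusted p = 2.29e-09), which is called but below 2-fold.

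Dnmt3b, the other catalytic de novo enzyme, rose by less. Its levels were 37.9, 24.6 and 33.3 CPM in untreated and 32.0, 33.2 and 36.1 CPM in OHT-treated HDAC1-WT libraries. It went from 78.8, 60.2 and 44.0 CPM to 103, 105 and 118 CPM in HDAC1-E63R cells. For HDAC1-Y48E cells the values were 43.2, 40.1 and 40.8 CPM before and 81.8, 90.04 and 81.6 CPM after OHT. Again only the HDAC1-WT groups overlapped. Dnmt3b changed by 0.83 ± 0.16 on the log2 scale for HDAC1-E63R (edgeR adjusted p = 6.71e-04) and by 1.03 ± 0.16 for HDAC1-Y48E (adjusted p = 2.76e-05). The HDAC1-E63R calls of Dnmt3b and Dnmt3l were lost when that line's libraries were fitted alone (edgeR adjusted p = 0.0378 and 0.0685), whereas without the library that stood apart the Dnmt3b change was 0.64 ± 0.12 (adjusted p = 6.80e-05). The ratio of Dnmt3a to Dnmt3b reads within a library rose from between 1.37 and 1.80 in untreated HDAC1-WT to between 3.83 and 4.33 in OHT-treated HDAC1-Y48E libraries. Dnmt3c, a rodent germline relative with 93.3% identity to Dnmt3b over 1655 bases, had a group mean of at most 0.281 CPM, so few reads could have been shared with it.

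Dnmt3l, which encodes the inactive partner of DNMT3A and DNMT3B, also rose in both mutant lines. It was at 141, 136 and 131 CPM in untreated and 182, 169.6 and 169.8 CPM in OHT-treated HDAC1-WT libraries, which did not overlap but differed by 0.36 ± 0.11 on the log2 scale, which was not called (edgeR adjusted p = 0.226). Without untreated HDAC1-E63R replicate 3 in the shared spread, that same change of 0.36 ± 0.06 was called (edgeR adjusted p = 3.42e-04). Levels in HDAC1-E63R cells were 231, 238 and 335 CPM untreated and 386, 406 and 394 CPM after OHT. Here untreated replicate 3 lay above the other untreated libraries, opposite to its position for the other 8 genes. Dnmt3l changed by 0.56 ± 0.11 on the log2 scale with that library (edgeR adjusted p = 8.00e-04) and by 0.75 ± 0.07 without it (adjusted p = 3.68e-12). HDAC1-Y48E levels of 225, 246 and 235 CPM became 562, 575 and 535 CPM, 1.24 ± 0.11 higher on the log2 scale (edgeR adjusted p = 1.25e-08). Aire lies on the opposite strand, shares 67 exon bases (2.24%) with Dnmt3l and fell in the HDAC1-Y48E line (log2 fold change -0.98 ± 0.12, edgeR adjusted p = 5.49e-07), a direction opposite to that of Dnmt3l.

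The maintenance pair fell in the HDAC1-Y48E line. Dnmt1 was at 247, 256 and 256 CPM in untreated and 227, 221 and 226 CPM in OHT-treated HDAC1-WT libraries. The HDAC1-Y48E line had 309, 279.9 and 316 CPM untreated and 202, 222 and 203 CPM after OHT. The groups did not overlap in either line, but only the HDAC1-Y48E change of -0.53 ± 0.14 on the log2 scale was called (edgeR adjusted p = 0.00500), while that of -0.17 ± 0.14 in the HDAC1-WT line was not (adjusted p = 0.789). The Dnmt1 call in HDAC1-Y48E cells was lost in 5 of 6 edgeR fits that left out 1 library of the comparison (adjusted p from 0.0106 to 0.0226) and kept without untreated replicate 2, whereas without untreated HDAC1-E63R replicate 3 its adjusted p was 7.35e-10. Uhrf1, which recruits DNMT1 to hemimethylated DNA, was at 262, 268 and 283 CPM in untreated and at 252, 246 and 262 CPM in OHT-treated HDAC1-WT libraries. It fell from 424, 434 and 435 CPM to 207, 234 and 211 CPM in HDAC1-Y48E cells, by 0.99 ± 0.15 on the log2 scale (edgeR adjusted p = 1.06e-05). After OHT the HDAC1-Y48E libraries thus lay below all HDAC1-WT libraries for Uhrf1, although they had started above them.

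For HDAC1-E63R the reading of the maintenance pair rested on 1 library. Dnmt1 was at 374, 354 and 203 CPM untreated and at 289, 269 and 269 CPM after OHT, and Uhrf1 was at 533, 481 and 284 CPM untreated and at 396, 392 and 357 CPM after OHT. Untreated replicate 3 lay below every OHT-treated library for both genes, and the other untreated libraries lay above them. With all libraries neither gene was called, Dnmt1 at -0.17 ± 0.14 (edgeR adjusted p = 0.413) and Uhrf1 at -0.18 ± 0.14 on the log2 scale (adjusted p = 0.390). Without that library both were called, at -0.40 ± 0.07 (edgeR adjusted p = 7.81e-06) and -0.41 ± 0.07 (adjusted p = 4.83e-06). The near-identical gene Gm5648, with 98.3% identity to Uhrf1 over 1590 bases, had a group mean of at most 1.63 CPM.

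Tet1 and Tet2, the main dioxygenase genes of these cells, showed the largest falls among the 9 genes in the HDAC1-Y48E line. Tet1 was at 356, 357 and 439 CPM in untreated and 365, 384 and 482 CPM in OHT-treated HDAC1-WT libraries, which overlapped. HDAC1-Y48E cells fell from 278, 320.4 and 335 CPM to 87.0, 81.5 and 90.6 CPM. This was a 3.60-fold fall (log2 fold change -1.85 ± 0.20, edgeR adjusted p = 1.43e-07). Tet2 was at 62.4, 65.8 and 69.7 CPM in untreated and 68.3, 66.0 and 84.8 CPM in OHT-treated HDAC1-WT libraries. HDAC1-Y48E cells went from 79.0, 91.2 and 88.7 CPM to 19.7, 27.7 and 23.4 CPM, a 3.66-fold fall (log2 fold change -1.87 ± 0.28, edgeR adjusted p = 1.30e-05). No OHT-treated HDAC1-Y48E library reached the lowest library of the HDAC1-WT line for either gene.

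Tet1 in HDAC1-E63R cells was at 401, 453 and 197 CPM untreated and at 323, 309.9 and 277 CPM after OHT. Tet2 was at 97.6, 96.8 and 27.0 CPM untreated and at 56.6, 53.0 and 51.3 CPM after OHT. As for the maintenance pair, untreated replicate 3 lay below the OHT-treated libraries and the other untreated ones lay above. Tet1 changed by -0.21 ± 0.19 (edgeR adjusted p = 0.460) and Tet2 by -0.46 ± 0.27 on the log2 scale (adjusted p = 0.219), neither of which was called. Without that library they were -0.49 ± 0.09 (edgeR adjusted p = 3.31e-05) and -0.86 ± 0.11 (adjusted p = 5.95e-08), and both were called.

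Tet3 is the Tet gene known for its role in the zygote and in differentiated cells. It was at 17.8, 14.5 and 19.3 CPM in untreated and 14.1, 23.5 and 18.1 CPM in OHT-treated HDAC1-WT libraries, and at 20.5, 29.8 and 24.3 CPM in untreated and 33.0, 38.6 and 29.0 CPM in OHT-treated HDAC1-Y48E libraries. The groups overlapped in both lines, and the log2 fold change of 0.43 ± 0.22 in the HDAC1-Y48E line was not called (edgeR adjusted p = 0.115). With Tet1 and Tet2 lower, Tet3 made up between 20.3% and 26.1% of the Tet reads in OHT-treated HDAC1-Y48E libraries, against 3.10% to 4.96% in the HDAC1-WT libraries after OHT. The exon lengths of the 3 Tet genes are alike, between 15457 and 16870 bases.

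Tdg, the glycosylase that follows TET oxidation, was at 27.1, 32.4 and 30.0 CPM in untreated and 27.3, 26.7 and 27.6 CPM in OHT-treated HDAC1-WT libraries. In the HDAC1-E63R line it was at 31.8, 28.1 and 16.1 CPM untreated and at 36.9, 35.6 and 40.9 CPM after OHT, and in the HDAC1-Y48E line at 33.5, 38.4 and 34.6 CPM untreated and at 44.8, 47.8 and 47.0 CPM after OHT. Groups did not overlap in either mutant line, yet the changes of 0.57 ± 0.17 for HDAC1-E63R (edgeR adjusted p = 0.0157) and 0.39 ± 0.17 for HDAC1-Y48E on the log2 scale (adjusted p = 0.0612) were not called. When untreated HDAC1-E63R replicate 3 was left out, the HDAC1-Y48E change of 0.39 ± 0.12 was called (edgeR adjusted p = 0.00572), and that of 0.33 ± 0.14 in the HDAC1-E63R line was not (adjusted p = 0.0636). Tdg reads are uncertain, because Gm9855 has 99.2% identity to it over 1194 bases and was counted at group means from 41.3 to 67.5 CPM. Gm9855 was itself called higher after OHT in both mutant lines, by 0.55 ± 0.14 for HDAC1-E63R (edgeR adjusted p = 0.00570) and 0.57 ± 0.14 for HDAC1-Y48E (adjusted p = 0.00190) on the log2 scale.

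The effect of OHT was next compared between lines, as the difference of log2 fold changes in the same edgeR model. Between HDAC1-Y48E and HDAC1-WT 6 of 9 genes differed, against 12.6% of all tested genes. The differences were 1.72 ± 0.20 for Dnmt3a (edgeR adjusted p = 1.53e-06), 0.95 ± 0.23 for Dnmt3b (adjusted p = 0.00521) and 0.89 ± 0.16 for Dnmt3l (adjusted p = 2.96e-04). For Uhrf1 the difference was -0.89 ± 0.20 (edgeR adjusted p = 0.00296), for Tet1 -1.95 ± 0.27 (adjusted p = 1.80e-05) and for Tet2 -2.02 ± 0.38 (adjusted p = 5.58e-04). Dnmt1, Tet3 and Tdg did not pass this test. Between HDAC1-E63R and HDAC1-WT 1 of 9 differed against 2.45%, Dnmt3a with 0.92 ± 0.20 (edgeR adjusted p = 0.00608). Between HDAC1-Y48E and HDAC1-E63R 1 of 9 differed against 1.95%, Tet1 with -1.64 ± 0.27 (edgeR adjusted p = 6.65e-04). The Dnmt3a difference between HDAC1-E63R and HDAC1-WT was lost in 7 of 12 edgeR fits that left out 1 library (adjusted p from 0.0145 to 0.0293), which were those without 1 OHT-treated library of either line or without untreated HDAC1-WT replicate 1. The Dnmt3b difference between HDAC1-Y48E and HDAC1-WT was lost in 10 of 12 (adjusted p from 0.0103 to 0.0240), all but those without untreated HDAC1-WT replicate 2 or OHT-treated HDAC1-WT replicate 3. The Uhrf1 difference was lost without OHT-treated HDAC1-Y48E replicate 1 (edgeR adjusted p = 0.0102). The first and second of these differences share the HDAC1-WT libraries, the first and last share the HDAC1-Y48E libraries, and the second and last share the HDAC1-E63R libraries.

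With untreated HDAC1-E63R replicate 3 left out, these counts were 7 of 9 against 23.1%, 4 of 9 against 6.53% and 5 of 9 against 7.45%. Dnmt1 was then added to the genes that differed between HDAC1-Y48E and HDAC1-WT (-0.36 ± 0.09, edgeR adjusted p = 9.48e-04). Between HDAC1-E63R and HDAC1-WT, Dnmt3a (0.77 ± 0.14), Dnmt3l (0.40 ± 0.09), Tet1 (-0.59 ± 0.12) and Tet2 (-1.01 ± 0.15) differed. Between HDAC1-Y48E and HDAC1-E63R, Uhrf1 (-0.58 ± 0.09), Dnmt3a (0.95 ± 0.13), Dnmt3l (0.49 ± 0.09), Tet1 (-1.36 ± 0.13) and Tet2 (-1.01 ± 0.16) differed, so that in this fit the HDAC1-Y48E line had the larger change of each. Dnmt3b did not pass the test between the mutant lines in either fit, with differences of 0.20 ± 0.23 and 0.39 ± 0.17 (edgeR adjusted p = 0.705 and 0.120).

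The mutant lines already differed from the HDAC1-WT line without OHT, when endogenous Hdac1/2 are present. In untreated HDAC1-E63R cells 4 of 9 genes were higher and 0 lower, against 9.04% and 7.83% of all tested genes. They were Dnmt3a (log2 fold change 1.24 ± 0.14, edgeR adjusted p = 9.75e-07), Dnmt3l (0.98 ± 0.11, adjusted p = 1.19e-06), Dnmt3b (0.94 ± 0.17, adjusted p = 1.84e-04) and Uhrf1 (0.68 ± 0.14, adjusted p = 0.00124). In untreated HDAC1-Y48E cells 3 of 9 were higher and 0 lower, against 6.42% and 5.74%. They were Dnmt3a (0.95 ± 0.14, edgeR adjusted p = 3.73e-05), Dnmt3l (0.79 ± 0.11, adjusted p = 2.13e-05) and Uhrf1 (0.67 ± 0.14, adjusted p = 0.00171). The Uhrf1 call was lost without untreated HDAC1-WT replicate 1 for HDAC1-Y48E (edgeR adjusted p = 0.0117), and for HDAC1-E63R without its untreated replicate 1 (adjusted p = 0.0121) and in the fit of the compared libraries alone (adjusted p = 0.0755), in which that of Dnmt3b was lost as well (adjusted p = 0.0333). Dnmt3b did not overlap either, at 0.38 ± 0.17, and was not called (edgeR adjusted p = 0.121). Uhrf1 thus stood higher in both untreated mutant lines, between 284 and 533 CPM, than in any untreated HDAC1-WT library, the highest of which was at 283 CPM.

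In the fit that left out untreated HDAC1-E63R replicate 3, 6 of 9 genes were higher and 0 lower in the untreated HDAC1-E63R cells, against 11.0% and 9.59%, with Dnmt1 (0.53 ± 0.07) and Tet2 (0.56 ± 0.11) added. In the untreated HDAC1-Y48E cells 5 were then higher and 1 lower, against 11.4% and 9.98%, with Dnmt1 (0.26 ± 0.06) and Tet2 (0.39 ± 0.10) added as higher and Tet1 (-0.30 ± 0.08) as lower. In this fit Tet2 was therefore higher in both untreated mutant lines than in HDAC1-WT and lower in both after OHT.

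After OHT the estimated distance from the HDAC1-WT line was larger for the de novo genes in both mutant lines. For HDAC1-E63R the test of the difference was passed by Dnmt3a only. There Dnmt3b (0.74 ± 0.23, edgeR adjusted p = 0.0613) and Dnmt3l (0.21 ± 0.16, adjusted p = 0.505) did not pass with all libraries. In the HDAC1-Y48E line the distance was larger for Tet1 and Tet2 as well. For the maintenance pair it was not. Uhrf1 went from 0.68 ± 0.14 untreated to 0.59 ± 0.14 after OHT for HDAC1-E63R. For HDAC1-Y48E it went from 0.67 ± 0.14 to -0.22 ± 0.14, and Dnmt1 from 0.25 ± 0.14 to -0.11 ± 0.14. In HDAC1-E63R cells 4 of 9 genes were higher and 0 lower, against 10.5% and 8.79%. Dnmt3a was 4.46-fold (log2 fold change 2.16 ± 0.14), Dnmt3b 3.21-fold (1.68 ± 0.17), Dnmt3l 2.28-fold (1.19 ± 0.11) and Uhrf1 1.51-fold (0.59 ± 0.14) higher, with edgeR adjusted p between 2.11e-10 and 0.00333. The Uhrf1 call was lost in 5 of 6 fits that left out 1 library of the comparison (edgeR adjusted p from 0.0101 to 0.0178), all but that without HDAC1-E63R replicate 3. In HDAC1-Y48E cells 5 were higher and 2 lower, against 16.6% and 15.2%. Dnmt3a was 6.33-fold (2.66 ± 0.15), Dnmt3l 3.21-fold (1.68 ± 0.11) and Dnmt3b 2.50-fold (1.32 ± 0.17) higher. Tet3 (0.85 ± 0.22, edgeR adjusted p = 0.00318) and Tdg (0.78 ± 0.17, adjusted p = 6.56e-04) were called higher too. Against untreated cells of the same line their rises were smaller and were not called with all libraries. The Tet3 call was lost in 3 of 6 edgeR fits that left out 1 library, namely HDAC1-WT replicate 1 or 3 or HDAC1-Y48E replicate 2 (adjusted p from 0.0142 to 0.0279). Tet1 was 4.75-fold (-2.25 ± 0.20) and Tet2 3.09-fold (-1.63 ± 0.28) lower, with edgeR adjusted p of 6.53e-09 and 5.79e-05.

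Without untreated HDAC1-E63R replicate 3 in the shared spread, 8 of 9 genes were called in OHT-treated HDAC1-E63R cells, 6 higher and 2 lower, against 29.5% of all tested genes in either direction. Dnmt1 (0.30 ± 0.06) and Tdg (0.48 ± 0.12) were added as higher and Tet1 (-0.43 ± 0.08) and Tet2 (-0.44 ± 0.10) as lower. In OHT-treated HDAC1-Y48E cells 8 of 9 were called, 5 higher and 3 lower, against 41.8%, with Uhrf1 (-0.22 ± 0.06) added as lower. All comparisons with the HDAC1-WT line at one treatment share the same 3 HDAC1-WT libraries.

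**Figure D3:**
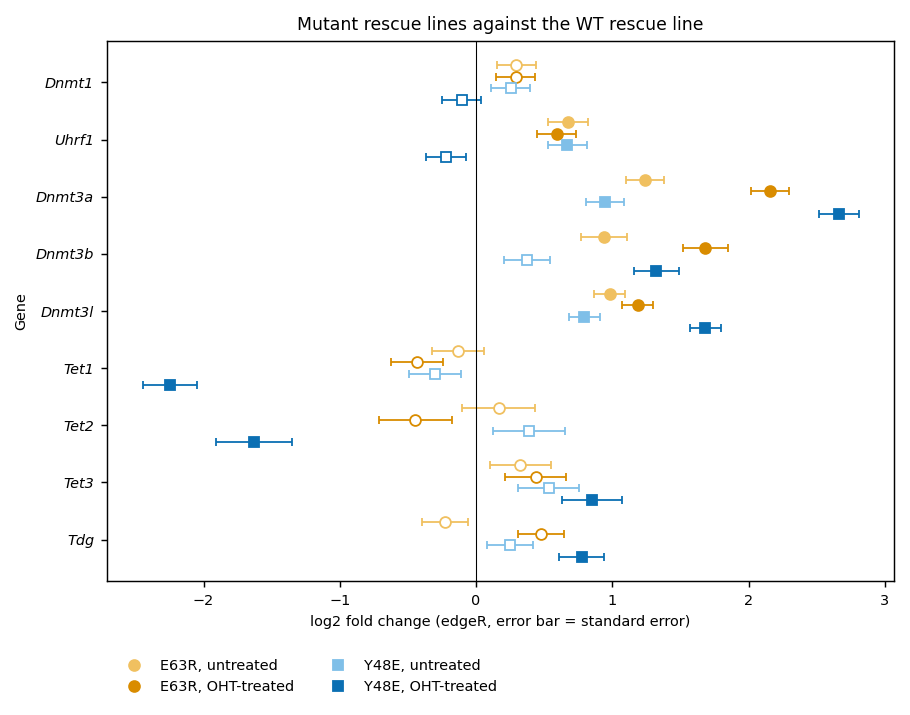
Log2 fold change of each mutant line against the HDAC1-WT line with its standard error (edgeR), untreated in pale and OHT-treated in dark colours. Filled symbols passed an adjusted p of 0.01. For Dnmt3a the values run from 0.95 in untreated to 2.66 in OHT-treated HDAC1-Y48E cells, and for Tet1 from -0.30 to -2.25.

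The order of the groups differed between the roles. For the de novo genes the HDAC1-WT groups were lowest and the OHT-treated mutant groups highest. Dnmt3a rose from 50.4 ± 9.38 CPM (SD, n = 3) in untreated HDAC1-WT cells through 53.6 ± 1.30 CPM after OHT, 97.1 ± 13.9 CPM in untreated HDAC1-Y48E and 119 ± 23.3 CPM in untreated HDAC1-E63R cells to 239 ± 4.80 CPM in OHT-treated HDAC1-E63R and 339.5 ± 23.2 CPM in OHT-treated HDAC1-Y48E cells. Neighbours overlapped only between the HDAC1-WT groups and between the untreated mutant groups. Without untreated HDAC1-E63R replicate 3, that group lay between 126 and 138 CPM and no longer overlapped untreated HDAC1-Y48E, at most at 113 CPM. Dnmt3l had the same order of groups, while Dnmt3b was highest in OHT-treated HDAC1-E63R cells (109 ± 7.87 CPM) and next in OHT-treated HDAC1-Y48E cells (84.5 ± 4.82 CPM), which did not overlap. With that replicate left out, the mean of Dnmt3l in untreated HDAC1-E63R cells was 234 CPM, beside 235 CPM in untreated HDAC1-Y48E cells.

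For Tet1 only the OHT-treated HDAC1-Y48E group (86.4 ± 4.57 CPM) was apart from its neighbour, and all 5 other groups, with means from 303 to 410.3 CPM, overlapped with the next in order. Without untreated HDAC1-E63R replicate 3, that group lay between 401 and 453 CPM. OHT-treated HDAC1-E63R (277 to 323 CPM) and untreated HDAC1-Y48E libraries (278 to 335 CPM) were then apart from the groups above them, which began at 356 CPM. Tet2 had 2 such separations with all libraries, from OHT-treated HDAC1-Y48E (23.6 ± 4.00 CPM) to OHT-treated HDAC1-E63R (53.6 ± 2.74 CPM) and from there to untreated HDAC1-WT cells (66.0 ± 3.65 CPM). Without that replicate, untreated HDAC1-E63R (96.8 to 97.6 CPM) was apart from untreated HDAC1-Y48E (79.0 to 91.2 CPM) too. Uhrf1 ran from 217 ± 14.7 CPM in OHT-treated HDAC1-Y48E cells to 431 ± 6.04 CPM in untreated HDAC1-Y48E and 432 ± 131 CPM in untreated HDAC1-E63R cells, and these last groups overlapped. Without that replicate they did not, at 424 to 435 CPM for HDAC1-Y48E and 481 to 533 CPM for HDAC1-E63R. For Tet3 only the OHT-treated HDAC1-Y48E group (33.5 ± 4.85 CPM) did not overlap with its neighbour. Per kilobase of exon, Dnmt3l (45.5 ± 1.82) and Uhrf1 (63.6 ± 2.56 CPM per kb) had the highest levels in untreated HDAC1-WT cells, and Tet3 (1.03 ± 0.15 CPM per kb) and Dnmt3a (3.03 ± 0.56 CPM per kb) the lowest. In OHT-treated HDAC1-Y48E cells Dnmt3a reached 20.4 ± 1.39 and Tet1 was at 5.59 ± 0.30 CPM per kb, whereas in untreated HDAC1-WT cells Tet1 was at 24.8 ± 3.07 CPM per kb.

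**Figure D4:**
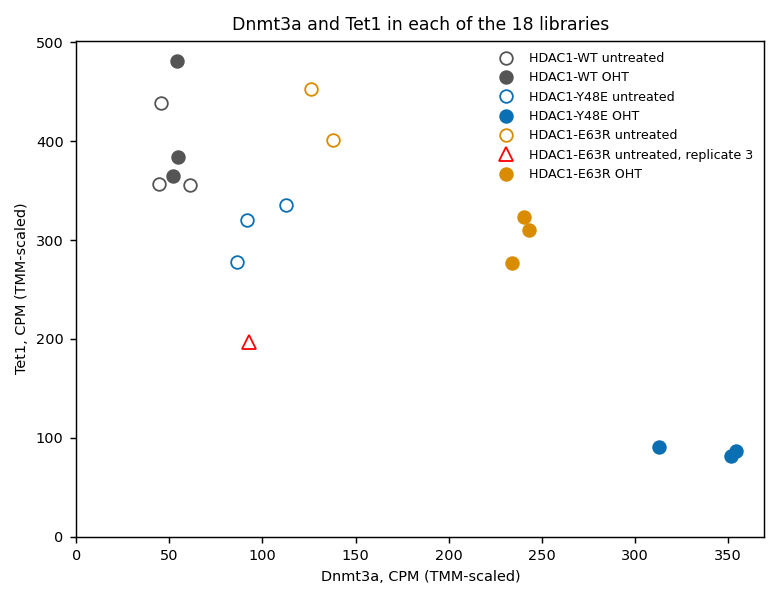
Dnmt3a against Tet1 in each of the 18 libraries (CPM on TMM-scaled library sizes, linear axes from 0). The HDAC1-WT libraries lie at the upper left and the OHT-treated HDAC1-Y48E libraries, between 81.5 and 90.6 CPM of Tet1, at the lower right, with untreated HDAC1-E63R replicate 3 (red triangle) at 197 CPM of Tet1.

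Prdm14, which encodes a repressor of the de novo methyltransferase genes in naive embryonic stem cells, was called lower in each comparison in which both Dnmt3a and Dnmt3l were called higher with all libraries. The calls did not match in every comparison. The OHT effect differed between HDAC1-E63R and HDAC1-WT for Dnmt3a but not for Prdm14 (-0.98 ± 0.23, edgeR adjusted p = 0.0138). Between HDAC1-Y48E and HDAC1-E63R it differed for Prdm14 (-2.39 ± 0.26, edgeR adjusted p = 7.44e-06) but not for Dnmt3a or Dnmt3l with all libraries. Prdm14 was at 52.9, 62.4 and 57.7 CPM in untreated and 55.5, 65.2 and 60.9 CPM in OHT-treated HDAC1-WT libraries. In the HDAC1-E63R line it fell from 25.8, 17.4 and 20.8 CPM to 9.11, 11.9 and 13.3 CPM, and in the HDAC1-Y48E line from 39.0, 32.3 and 31.3 CPM to 2.71, 3.90 and 3.78 CPM. These changes were -0.91 ± 0.17 (edgeR adjusted p = 5.74e-04) and -3.30 ± 0.20 on the log2 scale (adjusted p = 1.77e-11), and untreated cells of both lines were already below HDAC1-WT, with differences of -1.43 ± 0.16 (adjusted p = 1.13e-06) and -0.75 ± 0.16 (adjusted p = 0.00152). Leaving out untreated HDAC1-E63R replicate 3 gave a change of -0.93 for HDAC1-E63R (edgeR adjusted p = 4.55e-05). Whether Prdm14 has a part in the levels of the de novo genes was not tested.

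Other cofactors and regulators of methylation were called about as often as all tested genes in HDAC1-Y48E cells. Of 18 tested genes of that list, 0 were called in the HDAC1-WT line, 1 rose and 3 fell in the HDAC1-E63R line, and 2 rose and 4 fell in the HDAC1-Y48E line. Among all tested genes 7.49% rose and 6.82% fell for HDAC1-E63R, and 16.2% rose and 14.7% fell for HDAC1-Y48E. After leaving out untreated HDAC1-E63R replicate 3 the list had 1 rise in HDAC1-WT cells, 3 rises and 5 falls for HDAC1-E63R (background 8.85% and 9.63%) and 2 rises and 7 falls for HDAC1-Y48E (21.2% and 19.9%). The list's median log2 fold changes of 0.01, -0.14 and -0.16 stand beside 0.00, 0.03 and 0.05 over all tested genes. Besides Prdm14, the changes beyond 2-fold in the HDAC1-Y48E line were those of Dppa3, whose product keeps UHRF1 away from chromatin, and of Trdmt1, an RNA methyltransferase formerly called Dnmt2. Dppa3 rose from 15.1 ± 0.79 to 56.0 ± 4.40 CPM (log2 fold change 1.89 ± 0.23, edgeR adjusted p = 8.16e-07), and Trdmt1 rose from 5.37 ± 1.36 to 13.2 ± 3.42 CPM (1.30 ± 0.32, adjusted p = 0.00249). Untreated HDAC1-E63R cells were also above HDAC1-WT in Dppa3, by 2.05 ± 0.25 on the log2 scale (edgeR adjusted p = 2.26e-06).

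Among genes that act downstream of TET oxidation or assist it, falls were more frequent than rises. Of 18 tested genes of base excision repair and accessory demethylation factors, 0 rose and 9 fell for HDAC1-E63R and 0 rose and 10 fell for HDAC1-Y48E, with median log2 fold changes of -0.52 and -0.62 and 0 called in the HDAC1-WT line, against 6.82% and 14.7% of all tested genes that fell in the mutant lines. The glycosylase genes that act on oxidised or deaminated bases were among them in the HDAC1-Y48E line. Neil2 fell from 42.1 ± 3.07 to 10.1 ± 0.36 CPM (log2 fold change -2.06 ± 0.14, edgeR adjusted p = 2.16e-10), Nthl1 from 39.4 ± 1.63 to 9.89 ± 0.66 CPM (-1.995 ± 0.19, adjusted p = 3.36e-08), Neil1 from 12.8 ± 1.18 to 4.12 ± 0.95 CPM (-1.63 ± 0.25) and Smug1 from 24.7 ± 4.02 to 8.02 ± 0.44 CPM (-1.63 ± 0.22). Apobec1, a cytidine deaminase gene, fell most, from 31.8 ± 1.19 to 4.02 ± 0.87 CPM (-2.98 ± 0.22, edgeR adjusted p = 4.10e-10). For HDAC1-E63R, Neil2 changed by -1.23 ± 0.14, Gadd45b by -1.38 ± 0.16 and Gadd45g by -1.902 ± 0.38 on the log2 scale, all called lower by edgeR. With untreated HDAC1-E63R replicate 3 left out, which held the highest Gadd45g level of its group, the Gadd45g change was -1.04 (edgeR adjusted p = 0.00301) and that of Gadd45b -1.18. In that fit Gadd45g was also called lower after OHT in HDAC1-WT cells, by -1.11 (edgeR adjusted p = 0.00357). Of 19 genes then tested, 1 rose and 1 fell for HDAC1-WT, 0 rose and 9 fell for HDAC1-E63R, and 1 rose and 12 fell for HDAC1-Y48E. Falls then made up 0.656%, 9.63% and 19.9% of all tested genes in these lines.

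Readers of methylated CpG were also called near the background share. Of 9 tested, 0 were called in the HDAC1-WT line, 1 rose and 1 fell in the HDAC1-E63R line, and 2 rose and 1 fell in the HDAC1-Y48E line, against 16.2% and 14.7% of all tested genes in the last. Leaving out untreated HDAC1-E63R replicate 3 gave 3 rises and 2 falls for HDAC1-Y48E (21.2% and 19.9%) and the same counts in the other lines. In HDAC1-Y48E cells Mbd6 fell from 76.3 ± 7.94 to 28.4 ± 2.55 CPM (log2 fold change -1.43 ± 0.17, edgeR adjusted p = 5.76e-07) and Mbd5 rose from 9.03 ± 2.96 to 20.5 ± 1.95 CPM (1.18 ± 0.23, adjusted p = 2.24e-04). Both belong to the methyl-CpG-binding domain family by sequence, although neither is known to bind methylated DNA. Of 15 genes that make the methyl donor or the cofactor of the TET enzymes, 0 were called in the HDAC1-WT line, 2 rose and 3 fell in the HDAC1-E63R line, and 2 rose and 6 fell in the HDAC1-Y48E line. Among all tested genes 7.49% rose and 6.82% fell for HDAC1-E63R, and 16.2% rose and 14.7% fell for HDAC1-Y48E. The fit without untreated HDAC1-E63R replicate 3 gave 0 called for HDAC1-WT, 3 rises and 4 falls for HDAC1-E63R (8.85% and 9.63%), and 4 rises and 7 falls for HDAC1-Y48E (21.2% and 19.9%). In HDAC1-Y48E cells Shmt2, of mitochondrial one-carbon metabolism, fell from 304 ± 8.37 to 141 ± 14.2 CPM (-1.11 ± 0.10, edgeR adjusted p = 5.53e-09), and Mtrr, which reactivates methionine synthase, from 60.8 ± 6.28 to 29.6 ± 1.46 CPM (-1.04 ± 0.12, adjusted p = 4.45e-07).

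Among germline genes whose promoters are known to be methylated in somatic cells, more rose than fell in the HDAC1-Y48E line, where the de novo genes also rose. Of 19 tested, 11 rose and 2 fell in the HDAC1-Y48E line, 4 rose and 2 fell in the HDAC1-E63R line, and 1 rose and 1 fell in the HDAC1-WT line, with median log2 fold changes of 1.13, 0.41 and -0.48. The share of all tested genes that rose was 16.2%, 7.49% and 0.0373%. With untreated HDAC1-E63R replicate 3 left out, 12 rose and 2 fell for HDAC1-Y48E (21.2% and 19.9%), 6 rose and 2 fell for HDAC1-E63R (8.85% and 9.63%), and 1 rose and 5 fell for HDAC1-WT (0.738% and 0.656%), so that in HDAC1-WT cells falls outnumbered rises. Dazl, an RNA-binding factor of germ cells, rose from 52.9 ± 1.46 to 242 ± 5.30 CPM (log2 fold change 2.20 ± 0.14, edgeR adjusted p = 5.26e-11). Asz1, of the piRNA pathway, rose from 0.967 ± 0.53 to 15.8 ± 1.49 CPM (4.02 ± 0.55, edgeR adjusted p = 3.87e-06), and Dpep3 rose from 12.5 ± 1.33 to 62.2 ± 3.18 CPM (2.32 ± 0.24, adjusted p = 1.19e-07). Tex101, a germ cell surface glycoprotein, rose in all 3 lines, from 3.00 ± 1.71 to 23.5 ± 6.98 CPM in HDAC1-WT cells (2.95 ± 0.40, edgeR adjusted p = 0.00122), from 8.79 ± 3.55 to 45.5 ± 1.904 CPM in HDAC1-E63R cells (2.38 ± 0.36) and from 3.10 ± 2.12 to 42.2 ± 9.36 CPM in HDAC1-Y48E cells (3.77 ± 0.41). Methylation itself was not measured.

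Genes of S phase, in which DNMT1 and UHRF1 act and are produced, fell more often than they rose in the mutant lines. Of 20 tested, 0 rose and 14 fell in the HDAC1-Y48E line, 1 rose and 6 fell in the HDAC1-E63R line and 0 were called in the HDAC1-WT line. Falls made up 14.7% of all tested genes for HDAC1-Y48E and 6.82% for HDAC1-E63R, where neither Dnmt1 nor Uhrf1 was called by this fit. Leaving out untreated HDAC1-E63R replicate 3 gave 1 rise and 15 falls for HDAC1-Y48E (21.2% and 19.9%), 2 rises and 7 falls for HDAC1-E63R (8.85% and 9.63%) and 0 called for HDAC1-WT. In untreated HDAC1-E63R cells 9 were higher and 0 lower than in HDAC1-WT (10 and 1 without that library), against 9.04% and 7.83% of all tested genes. In untreated HDAC1-Y48E cells 4 were higher and 2 lower than in HDAC1-WT, against 6.42% and 5.74%. Without that library 9 were higher and 2 lower there, against 11.4% and 9.98%. Rrm2, of the ribonucleotide reductase, fell from 309 ± 4.14 to 132 ± 11.5 CPM (log2 fold change -1.23 ± 0.09, edgeR adjusted p = 5.90e-10) and Cdc6, a licensing factor, from 48.2 ± 4.04 to 19.0 ± 0.39 CPM (-1.34 ± 0.13, adjusted p = 2.31e-08) in the HDAC1-Y48E line. The summed level of the list was between 3960.2 and 4017 CPM in untreated and between 2386 and 2639 CPM in OHT-treated HDAC1-Y48E libraries, and its part in the fall of Dnmt1 and Uhrf1 was not tested. In untreated HDAC1-E63R replicate 3 the summed level was 4719 CPM, against 4665 and 4354 CPM in the other libraries of the group. Dnmt1 and Uhrf1 were low in that library. Any relation between the list and these genes there was not tested and would rest on 1 library.

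Markers of cell state moved as well. Among all tested genes, 0.0373% rose and 0.0213% fell for HDAC1-WT, 7.49% and 6.82% for HDAC1-E63R, and 16.2% and 14.7% for HDAC1-Y48E. Without untreated HDAC1-E63R replicate 3 these shares were 0.738% and 0.656%, 8.85% and 9.63%, and 21.2% and 19.9%. Of 10 ES cell markers, which include Prdm14 and Dppa3, 1 rose and 8 fell in the HDAC1-Y48E line, 1 rose and 3 fell in the HDAC1-E63R line and 0 were called in the HDAC1-WT line. Without the library that stood apart, 4 rose and 0 fell for HDAC1-WT, among them Esrrb (0.28), Tbx3 (0.40) and Klf4 (0.39 on the log2 scale), and 2 rose and 4 fell for HDAC1-E63R, while the HDAC1-Y48E counts were the same. Their sum was between 1503 and 1624 CPM in OHT-treated HDAC1-Y48E libraries against 3454 to 3494 CPM untreated, and between 4503 and 5276 CPM in the HDAC1-WT line. Of 7 tested markers of the formative and primed epiblast, a state in which Dnmt3a and Dnmt3b are known to be high, 0 rose and 1 fell in the HDAC1-Y48E line, 1 rose, Otx2, in the HDAC1-E63R line and 0 were called for HDAC1-WT. Without the library that stood apart, 1 rose and 2 fell for HDAC1-Y48E, the rise being that of Pou3f1 (0.69, edgeR adjusted p = 0.00369), and the other counts were the same. Otx2 stayed far below the HDAC1-WT level, at 7.04 ± 2.08 CPM in OHT-treated HDAC1-E63R and 5.85 ± 2.50 CPM in OHT-treated HDAC1-Y48E against 70.9 ± 5.92 CPM in OHT-treated HDAC1-WT cells. Pou3f1 stood above it, at 23.1 ± 0.30 and 20.6 ± 2.91 against 4.13 ± 0.75 CPM. The summed level of the list was between 76.9 and 79.6 CPM in OHT-treated and 84.8 and 99.4 CPM in untreated HDAC1-Y48E libraries, and between 153 and 188 CPM in OHT-treated HDAC1-WT libraries. Of 6 trophoblast markers 4 rose for HDAC1-E63R and 3 for HDAC1-Y48E, and of 4 markers of 2-cell-like cells 4 and 2 rose (4 and 3 without the library that stood apart), with 0 of either list called for HDAC1-WT. The trophoblast sum was between 149 and 156 CPM in OHT-treated HDAC1-E63R and between 90.9 and 99.3 CPM in OHT-treated HDAC1-Y48E libraries. Untreated, it was between 53.6 and 79.1 CPM and between 62.9 and 75.7 CPM. HDAC1-WT libraries lay above all of these, from 199 to 215 CPM untreated and from 213 to 246 CPM after OHT. In each untreated mutant line 3 of the 6 markers were called lower than in HDAC1-WT and 0 higher. Among all tested genes 7.83% were lower and 9.04% higher for untreated HDAC1-E63R, and 5.74% and 6.42% for untreated HDAC1-Y48E. After OHT 2 markers were higher and 2 lower in each line. The shares of all tested genes were then 10.5% higher and 8.79% lower for HDAC1-E63R, and 16.6% and 15.2% for HDAC1-Y48E. The sum of the 2-cell-like markers was between 246 and 263 CPM in OHT-treated and 70.0 and 81.9 CPM in untreated HDAC1-Y48E libraries, and at most 4.19 CPM in the HDAC1-WT line.

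Of the fibroblast markers 4 of 8 were tested, and 2, Col1a1 and Thy1, rose in each mutant line. Among all tested genes 7.49% rose for HDAC1-E63R and 16.2% for HDAC1-Y48E. Thy1 was called higher for HDAC1-WT too when untreated HDAC1-E63R replicate 3 was left out (0.88 on the log2 scale, edgeR adjusted p = 1.83e-04). Lum and Dcn were at 0 in OHT-treated HDAC1-Y48E libraries, and the sum of the 8 was between 86.5 and 96.9 CPM there against 25.6 to 28.6 CPM untreated. It was between 39.0 and 43.2 CPM in OHT-treated and 25.3 and 28.4 CPM in untreated HDAC1-WT libraries, and between 53.1 and 59.6 CPM in OHT-treated and 12.9 and 19.7 CPM in untreated HDAC1-E63R libraries. None of the 5 tested primitive endoderm markers was called by edgeR for OHT-treated against untreated cells in any line. The sum of the list was between 14.6 and 20.1 CPM in OHT-treated HDAC1-Y48E and between 30.3 and 37.4 CPM in OHT-treated HDAC1-WT libraries. Against HDAC1-WT, 3 were lower for HDAC1-E63R both untreated and after OHT (7.83% and 8.79% of all tested genes), and 0 higher. For HDAC1-Y48E 2 were lower at both treatments (5.74% and 15.2%), with 0 higher untreated and 1 higher after OHT (6.42% and 16.6%). The part of these markers in the levels of the 9 genes was not tested.

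Genes with the most similar profiles over the 18 libraries were found by Pearson correlation of log2 CPM among 16675 genes with a mean of at least 1 CPM. The libraries share depth and fall into 6 groups, so these values describe the groups more than single libraries. Untreated HDAC1-E63R replicate 3, in which most of the 9 genes were lower than in the rest of its group, was included. Its part in these values was not tested. Dnmt3a was nearest to Gm4782 (r = 0.98) and Impdh1 (0.97), Dnmt3b to Ddx21 (0.96) and Ccdc3 (0.95), and Dnmt3l to Ano8 and Junb (both 0.98). Dnmt1 was nearest to Mybbp1a (0.95) and Brca1 (0.94), and Uhrf1 to Brca1 and Mettl2 (both 0.96), so that Brca1 was shared by the maintenance pair. Tet1 was nearest to Brpf3 (0.98) and Pml (0.97), Tet2 to Zfp710 and Tcof1 (both 0.96), Tet3 to Xpo1 (0.91) and Abca2 (0.90), and Tdg to Nup210 (0.95) and Cap1 (0.94). Among the 9 genes the closest pairs were Dnmt3a and Dnmt3l (r = 0.96), Dnmt1 and Uhrf1 (0.93), Dnmt3a and Dnmt3b (0.93), and Tet1 and Tet2 (0.90).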

How the data were processed

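RNA-seq was carried out on 18 libraries of Hdac1/2 lox/lox mouse embryonic stem cells, in 6 groups of 3, which the study describes as biological replicates. The authors deposited raw read counts per gene symbol for each library. Per the labels and the submitters' processing notes, libraries were made with the NEB Next Ultra RNA kit and reads were handled with HISAT2 2.1.0, SAMtools 1.9 and HTSeq on mm10. The annotation and the use of strand in counting are not given in the sources used here, so reads of a gene and of an overlapping antisense gene cannot be told apart. The 5 entries that name no gene held 59.4% to 61.2% of each library and were left out of library sizes and tests.

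Genes were filtered with filterByExpr, scaled with TMM factors and tested with edgeR 4.0.16 (R 4.3.3) by quasi-likelihood, in 1 model with a mean per group over all 18 libraries. Benjamini-Hochberg adjustment ran over all 18791 tested genes in each of 10 comparisons. Standard errors are the log2 fold change divided by the square root of F. Replicates of a group differed beyond counting noise in every pair (chi-square per degree of freedom at least 3.31). The standard errors include the spread between replicates as the model estimates it, whereas the floors cover counting error only. Alternatives comprised RLE scaling, all genes unfiltered, a replicate block, separate fits of the compared libraries, the DESeq2 1.42.0 Wald test, a limit of 0.05 and fits without each library in turn. The effect of leaving out untreated HDAC1-E63R replicate 3 on comparisons that do not contain it was added after the data were seen. Replicate numbers did not pair libraries (correlations of deviations between -0.02 and 0.04).

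The members and the gene lists were chosen with earlier results of these data known. From each list, up to 6 genes per comparison were eligible to be named, by size of change, if called, beyond 2-fold and at a mean of at least 1 CPM, and Prdm14 was always named. Near-identical genes were found with BLAST+ 2.17.0 on mm10 transcripts (at least 90% identity over 200 bases). The procedure was tested on simulated counts.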

Additional observations from a re-analysis of the deposited data

Results flagged for a closer look

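The results below were marked because the effect of OHT on a gene differed between rescue lines in the edgeR test of the difference itself (adjusted p under 0.01 over all tested genes). Between HDAC1-Y48E and HDAC1-WT the log2 fold changes differed by 1.72 for Dnmt3a, 0.95 for Dnmt3b, 0.89 for Dnmt3l, -0.89 for Uhrf1, -1.95 for Tet1 and -2.02 for Tet2. Between HDAC1-E63R and HDAC1-WT they differed by 0.92 for Dnmt3a. Between HDAC1-Y48E and HDAC1-E63R they differed by -1.64 for Tet1. The HDAC1-WT libraries serve both of the first 2 comparisons. Untreated HDAC1-E63R replicate 3 enters the last 2 directly, and without it the Dnmt3a difference was 0.77 and the Tet1 difference -1.36, both still called.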

How the results depend on the processing

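The number of the 9 genes called stayed within 1.5 times the reported number in 118 of 144 alternatives. Fitting only the libraries compared gave 1 called gene for OHT in HDAC1-WT, 1 for OHT in HDAC1-E63R, 2 for untreated HDAC1-E63R against HDAC1-WT, 6 for untreated HDAC1-Y48E against HDAC1-WT, 8 for OHT-treated HDAC1-E63R against HDAC1-WT and 0 for the difference between HDAC1-E63R and HDAC1-WT. For the difference between HDAC1-Y48E and HDAC1-E63R the number was 5 at an adjusted p under 0.05, 2 with relative log expression factors, 5 without a filter on low counts and 4 by DESeq2. With 1 library left out, the number ran from 0 to 1 for OHT in HDAC1-WT, 3 to 7 for OHT in HDAC1-E63R, 2 to 6 for untreated HDAC1-Y48E and 3 to 8 for OHT-treated HDAC1-E63R against HDAC1-WT, 0 to 4 for the difference between HDAC1-E63R and HDAC1-WT, and 1 to 5 for that between HDAC1-Y48E and HDAC1-E63R. Each of these highest values came without untreated HDAC1-E63R replicate 3. The cause was not tested.

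Of 1206 values of single genes under an alternative, 1093 kept direction and call, 38 lost a call, 52 gained one and 23 changed sign, none of them called with all libraries. With 1 library left out, the log2 fold change after OHT ran in HDAC1-WT from -0.0732 to 0.22 for Dnmt3b, -0.036 to 0.21 for Tet1 and -0.094 to 0.27 for Tet3, and in HDAC1-E63R from -0.49 to 0.0181 for Tet1 and -0.0269 to 0.39 for Tet3. For untreated HDAC1-E63R against HDAC1-WT it ran from -0.36 to 0.16 for Tet1, -0.0911 to 0.56 for Tet2 and -0.43 to 0.0144 for Tdg. The difference between HDAC1-E63R and HDAC1-WT ran from -0.24 to 0.15 for Dnmt1, -0.32 to 0.10 for Uhrf1 and -0.14 to 0.32 for Tet3, and that between HDAC1-Y48E and HDAC1-E63R from -0.031 to 0.39 for Dnmt3b and -0.38 to 0.0557 for Tdg. The Dnmt1 difference between HDAC1-E63R and HDAC1-WT, -0.00327 as reported, was 0.00268 without a filter and 0.0102 with the replicate block. The numbers in the labels did not pair libraries, and the replicate block moved no count of called genes beyond 1.5 times. Relative log expression factors shifted the median of all genes by at most 0.04 on the log2 scale.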
